A study of Mus musculus with 16 samples.

Results

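Described here are 9 genes of haemoglobin production in mouse bone marrow, namely the adult globins Hba-a1, Hba-a2, Hbb-bs and Hbb-bt, and the heme synthesis enzymes Alas2, Alas1, Urod, Cpox and Fech. They were chosen by symbol, as 9 of the 27998 genes in the deposited count matrices, and all 9 symbols were found in all 8 mRNA libraries. Single-cell RNA sequencing with 10x Genomics 3′ chemistry had been run on lineage-depleted (Lin-) marrow of 16 C57BL/6 mice aged 6 to 12 weeks. The Tet2-KO mice were Vav-Cre-Tet2-/-, in which Cre is active across blood cells, and the WT mice were Tet2fl/fl with no Cre named in the labels. Both genotypes had been injected intraperitoneally for 5 weeks with vehicle or with IL1β at 500 ng per mouse per day. Each of the 4 groups has 2 libraries, and each library pools 2 mice of 1 group that carried different hashtag antibodies: mice 1 and 2 in replicate 1, and mice 3 and 4 in replicate 3. The effects of Cre and of Tet2 loss cannot be told apart in these groups, and red blood cells had been lysed and lineage-positive cells removed before capture, so the later erythroid stages are under-represented.

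Haemoglobin carries oxygen in red cells as a tetramer of alpha and beta globin chains, each holding 1 heme. Heme synthesis begins in the mitochondrion, where an aminolevulinate synthase joins glycine to succinyl-CoA: ALAS2 is the erythroid form and ALAS1 the form used by other cells. Urod acts in the cytosol and decarboxylates uroporphyrinogen, Cpox acts in the space between the mitochondrial membranes and makes protoporphyrinogen, and Fech inserts iron into protoporphyrin as the last step. Red cell development runs from megakaryocyte-erythroid progenitors (MEP) through colony-forming progenitors (CFU-E) to erythroblasts, which fill with haemoglobin and lose surface proteins of white cells.

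The promoter sequences are shown for the genes that separate in the results: an alpha globin, both beta globins, the erythroid synthase, and Urod and Cpox, which are compared as a ratio. Each run is the 150 bases before the RefSeq start in build GRCm38.p6, written 5′ to 3′ along the gene's own strand. Capitals mark matches on either strand to GATA sites (A or T, then GATA, then A or G), CACCC boxes and CCAAT boxes, letters that GATA1, KLF1 and CCAAT-binding factors are known to bind. The windows are chr11:32283522-32283671 (+) for Hba-a1, chr7:103827929-103828078 (-) for Hbb-bs, chr7:103813924-103814073 (-) for Hbb-bt, chrX:150547267-150547416 (+) for Alas2, chr4:116994414-116994563 (-) for Urod and chr16:58670058-58670207 (+) for Cpox.
Hba-a1: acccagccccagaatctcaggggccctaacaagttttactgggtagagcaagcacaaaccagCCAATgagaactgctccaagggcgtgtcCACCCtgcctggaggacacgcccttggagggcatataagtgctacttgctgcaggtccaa
Hbb-bs: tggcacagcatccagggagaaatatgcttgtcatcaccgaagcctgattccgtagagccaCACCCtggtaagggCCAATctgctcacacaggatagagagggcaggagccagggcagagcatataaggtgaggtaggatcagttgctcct
Hbb-bt: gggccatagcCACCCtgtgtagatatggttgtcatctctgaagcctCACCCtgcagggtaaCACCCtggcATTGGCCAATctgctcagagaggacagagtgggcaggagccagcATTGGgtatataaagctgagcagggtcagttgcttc
Alas2: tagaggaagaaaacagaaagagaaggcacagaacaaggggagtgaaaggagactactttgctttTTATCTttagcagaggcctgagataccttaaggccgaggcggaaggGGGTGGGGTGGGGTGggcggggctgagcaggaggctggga
Urod: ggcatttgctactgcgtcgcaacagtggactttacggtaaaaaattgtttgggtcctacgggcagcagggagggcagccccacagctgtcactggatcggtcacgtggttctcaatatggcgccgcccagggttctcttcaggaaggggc
Cpox: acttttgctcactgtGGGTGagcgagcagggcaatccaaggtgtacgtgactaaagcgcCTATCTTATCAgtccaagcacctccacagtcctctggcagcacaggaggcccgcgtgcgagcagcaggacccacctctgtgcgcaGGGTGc
The Hba-a1 and Hbb-bs windows each held 1 CACCC and 1 CCAAT match, and Hbb-bt held 3 of each, of which 1 pair of CCAAT matches adjoins. Alas2 held 1 GATA match and 3 CACCC matches, and Cpox held 2 GATA matches that share a base and 2 CACCC matches. The Urod window held none of the 3 motifs. Across 32851 promoter windows of the same length, 16.0% held a GATA match, 37.4% a CACCC match and 24.5% a CCAAT match, so these matches are common and are descriptions of the letters only.

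The 4 globin genes are near-identical copies, which limits how firmly reads can be assigned to one of a pair. The coding sequences of Hba-a1 and Hba-a2 were identical at 425 of 426 aligned bases and those of Hbb-bs and Hbb-bt at 440 of 441. In the last 100 bases of the transcripts, where 3′ reads fall, the alpha pair had 84 identical columns of 116, and the other 32 were gaps. No aligned base differed there, so these bases do not separate the 2 alpha copies. The beta pair differed more in its last 100 bases, with 66.99% identity and 6 gap columns of 103. Values of a single copy are therefore uncertain where reads fell in shared stretches. Summed pairs are given beside the globin calls of the CFU-E and MEP gates, and were not fitted for cells outside the erythroid gates.

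The gates were cut on genes other than the 9. A cell needed at least 750 detected genes and at most 10% mitochondrial UMIs (unique molecular identifiers, each marking 1 captured transcript molecule), and cells positive for both hashtags of a pool were left out. The erythroblast gate required at least 4 detected genes of a list of erythroid membrane and late genes that includes Slc4a1 and Epb42, the CFU-E gate at least 4 of a list led by Car1, Klf1 and Epor without that, and the MEP gate Gata1 and Gata2 together without either list and with at most 1 gene each of a basophil and an eosinophil list. Of 121405 barcodes, 90979 cells were used, 8333 to 13880 per library with 51009539 to 88064590 UMIs, and 11 to 57 barcodes were shared by any pair of libraries, 1061 barcodes in all. Tet2 stood at 27.2 to 39.3 CPM in the vehicle libraries and 48.5 to 66.9 CPM in the IL1β libraries of both genotypes, and since 3′ tags need not lie in the deleted part this does not check the genotype. The gates held 824, 9288 and 13148 cells, with 57 to 133, 445 to 1599 and 639 to 2876 per library, and median depths of 2731 to 3851.5, 7203 to 12626 and 7520.5 to 14417 UMIs per cell. Levels are UMIs scaled to 1000000 (CPM), summed per library and gate. One molecule gives 1 tag whatever its length, so transcript length does not enter comparisons between genes on this scale. How well the 3′ end of each gene was captured was not tested, so such comparisons are approximate. Levels within the globin pairs cannot be compared so, since reads of shared stretches may fit both copies. How such reads were counted was not tested. If they were left out, globin levels would be undercounted and alpha per beta globin would be affected too.

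The gate labels held against genes that no gate used. Hemgn, an erythroid nuclear protein, stood at 292 to 414 CPM in the erythroblast gate and at 89.3 to 159 CPM in the CFU-E gate. Ptprc, which encodes the leukocyte protein CD45, stood at 10.2 to 21.5 CPM and 17.0 to 41.4 CPM in the same gates. The genes required for the MEP gate were Gata1 and Gata2 alone. Its cells also carried genes of the CFU-E list at a summed 1004 to 2344 CPM and of the megakaryocyte list at 523 to 1110 CPM. The HSC list summed to 281 to 491 CPM, the granulocyte progenitor list to 214 to 638 CPM and the T/NK list to 139 to 326 CPM. The T/NK sum rested on as few as 2 of 7 markers, and Cd3e had no UMI there in any library.

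All 4 globins were far higher in the erythroblast gate than in the CFU-E gate of every library. Summed adult globins made up 0.00353% to 0.0507% of UMIs in the MEP gate, 0.0235% to 0.188% in the CFU-E gate and 0.596% to 1.28% in the erythroblast gate. In the erythroblast gate the share was 0.979% and 1.13% in WT with vehicle, 1.02% and 1.01% in WT with IL1β, 0.989% and 1.28% in Tet2-KO with vehicle, and 0.596% and 0.927% in Tet2-KO with IL1β, replicate 1 first. Tet2-KO with IL1β therefore held the lowest library of the 8 by a wide margin, and its other library also lay below the remaining 6. That lowest library, replicate 1, also had the smallest and deepest erythroblast gate, with 639 cells at a median of 14417 UMIs per cell. The part of depth in its low share was not tested. The erythroblast gate held 69.2% to 84.1% of all globin UMIs of a library.

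**Figure D1:**
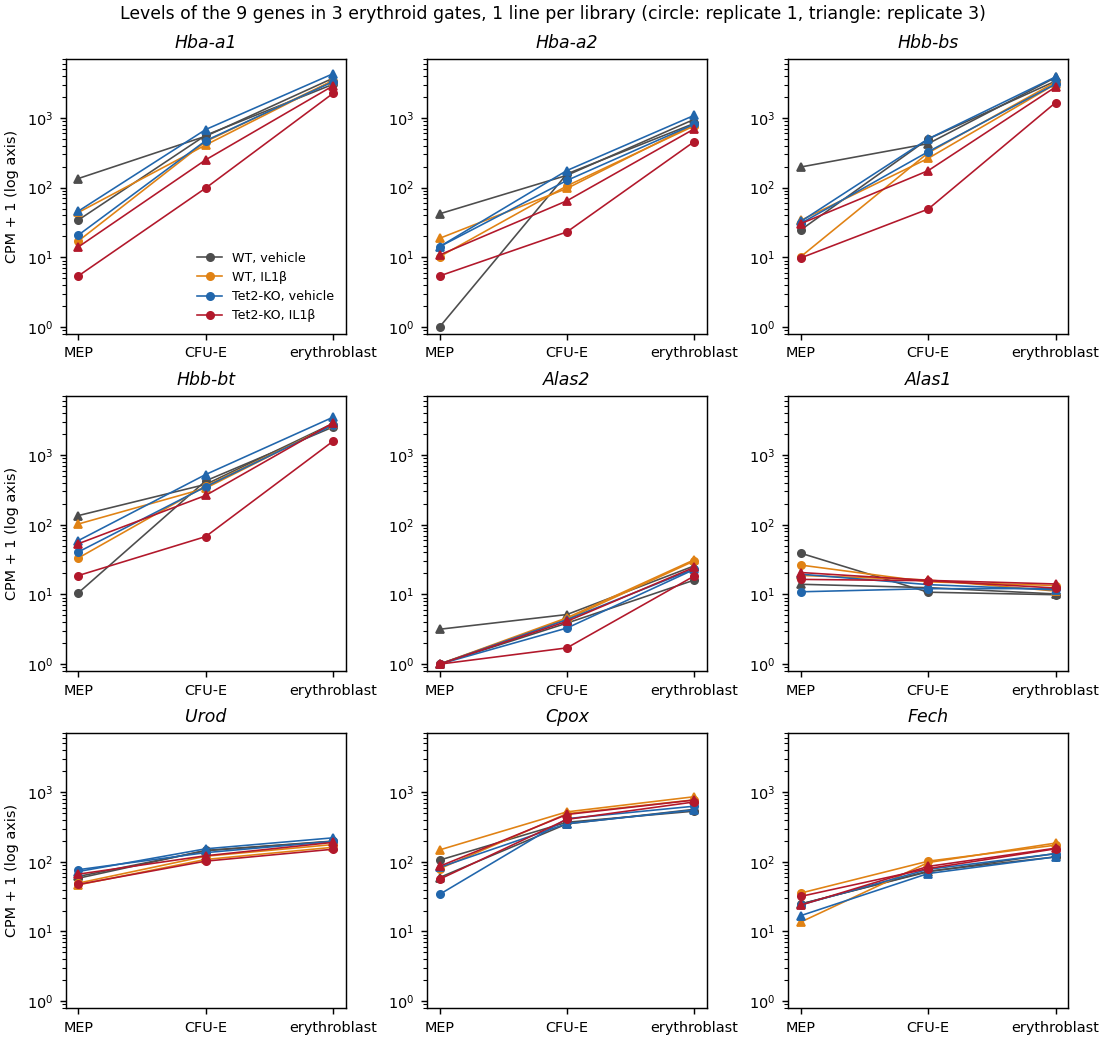
CPM + 1 on a log axis for each of the 9 genes in the MEP, CFU-E and erythroblast gates, 1 line per library, coloured by group, with circles for replicate 1 and triangles for replicate 3. The 4 globins and Alas2 climb steeply, Urod, Cpox and Fech climb less, Alas1 is flat or falling, and the replicate 1 library of Tet2-KO with IL1β is lowest for all 4 globins in the CFU-E and erythroblast gates.

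The alpha globins had unequal counts as assigned by the authors' processing. Hba-a1 reached 2257 to 4316 CPM in the erythroblast gate (median 3373, n = 8 libraries) and Hba-a2 458 to 1092 CPM (median 814). Hba-a1 was higher in the erythroblast than in the CFU-E gate by a median of 7.27-fold (5.40-fold to 23.1-fold) and Hba-a2 by 6.90-fold (5.33-fold to 20.6-fold). Both were thus higher in 8 of 8 libraries. Most alpha-globin UMIs were assigned to Hba-a1, with Hba-a1 per Hba-a2 between 3.64 and 4.93 in the erythroblast gate.

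The beta globins had closer counts, with the same limit on shared reads. Hbb-bs stood at 1661 to 3886 CPM in the erythroblast gate (median 3174) and Hbb-bt at 1580.2 to 3491 CPM (median 2748). Hbb-bs was 9.90-fold above its CFU-E level at the median (6.80-fold to 34.4-fold) and Hbb-bt 7.64-fold (5.94-fold to 23.7-fold). Hbb-bt per Hbb-bs was lower in the erythroblast than in the CFU-E gate in 8 of 8 libraries. It passed from above 1 to below 1 in 5 of them, lay below 1 in both gates in both WT vehicle libraries, and stayed above 1 in replicate 3 of Tet2-KO with IL1β. Alpha globin UMIs per beta globin UMI were 0.718 to 1.04 in the CFU-E gate and 0.633 to 0.838 in the erythroblast gate.

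Alas2, whose product starts erythroid heme synthesis, was scarce. It had no UMI in the MEP gate in 7 of 8 libraries and 1 UMI in the other, 0.710 to 4.15 CPM in the CFU-E gate and 15.1 to 30.5 CPM in the erythroblast gate. Its median step of 7.99-fold between the last 2 gates (5.24-fold to 24.5-fold) was of the globins' size. Alas1 ran the other way: its median level was 18.1 CPM in the MEP gate, 13.5 CPM in the CFU-E gate and 10.9 CPM in the erythroblast gate, and it was higher in the erythroblast than in the CFU-E gate in 1 of 8 libraries. Alas2 exceeded Alas1 in the erythroblast gate in 8 of 8 libraries, at 1.53 to 2.99 UMIs per Alas1 UMI, whereas in the CFU-E gate the ratio was 0.0482 to 0.360.

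The 3 later enzymes stepped up less than the globins between the CFU-E and erythroblast gates. Cpox was the most abundant of them, at medians of 80.2, 410.1 and 674 CPM in the MEP, CFU-E and erythroblast gates. Urod stood at 58.8, 128 and 192 CPM and Fech, the iron-inserting enzyme, at 23.5, 78.0 and 142 CPM. From the CFU-E to the erythroblast gate Cpox stepped up 1.60-fold (1.44-fold to 1.78-fold), Urod 1.46-fold (1.36-fold to 1.56-fold) and Fech 1.79-fold (1.61-fold to 1.93-fold), each in 8 of 8 libraries. These steps are descriptions without a test, since the gates were cut on other genes of the same cells.

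Globin RNA was unevenly spread over cells. No globin UMI was seen in 58.7% to 87.0% of MEP-gate cells, 22.2% to 61.1% of CFU-E-gate cells and 3.13% to 12.7% of erythroblast-gate cells. The 10% of cells with the most globin held 70.5% to 84.6% of the globin UMIs of the CFU-E gate and 36.6% to 48.2% of those of the erythroblast gate. With every cell thinned to 2000 UMIs, Hba-a1 was seen in 8.14% to 32.3% of CFU-E-gate cells and 59.2% to 77.5% of erythroblast-gate cells, against 22.5% to 54.2% and 79.7% to 91.4% unthinned. Thinning left out 55 shallower cells of the CFU-E gate and 13 of the erythroblast gate. Cells past 5% globin numbered 15 to 278 per library, none passed 50%, and of 23548 barcodes below 750 genes only 12 did, so barcodes dominated by globin RNA were nearly absent from the files.

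Globins of the MEP gate were compared with those of cells of another lineage. Cells with 4 or more genes of a granulocyte progenitor list (Elane, Prtn3, Mpo and others) held 0.00188% to 0.00997% globin UMIs, and the MEP gate 0.00353% to 0.0507%. At 2000 UMIs per cell Hbb-bs was seen in 0.952% to 13.04% of MEP-gate cells and 0.977% to 6.65% of granulocyte-progenitor-like cells, whose unthinned median depths were 2731 to 3851.5 and 4680 to 8193 UMIs. Within a library the globin share was higher in the MEP gate in 8 of 8, by 1.18-fold to 6.15-fold, whereas the share of cells with Hbb-bs at equal depth was higher there in 3 of 8. A cell share at or below that of the other lineage is read as background, so Hbb-bs was not detectable above background by that measure in the remaining 5, which are replicate 1 of WT with vehicle, both libraries of WT with IL1β, replicate 3 of Tet2-KO with vehicle and replicate 1 of Tet2-KO with IL1β. At the same depth Hba-a1 was seen in 1.28% to 11.3% of MEP-gate cells and 0.935% to 4.61% of granulocyte-progenitor-like cells. Hbb-bt was seen in 2.17% to 10.9% and 1.70% to 6.04%, and Hba-a2 in 0% to 4.35% and 0.297% to 2.15%. Basophil-like cells showed Hbb-bs in 1.85% to 14.1%. The background reading therefore covers Hbb-bs against this 1 class only. Alas1 separated the granulocyte-progenitor-like cells from the erythroblast gate clearly, at 250.2 to 322 CPM against 8.90 to 13.1 CPM, with neutrophil-like cells between at 46.2 to 80.8 CPM.

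**Figure D2:**
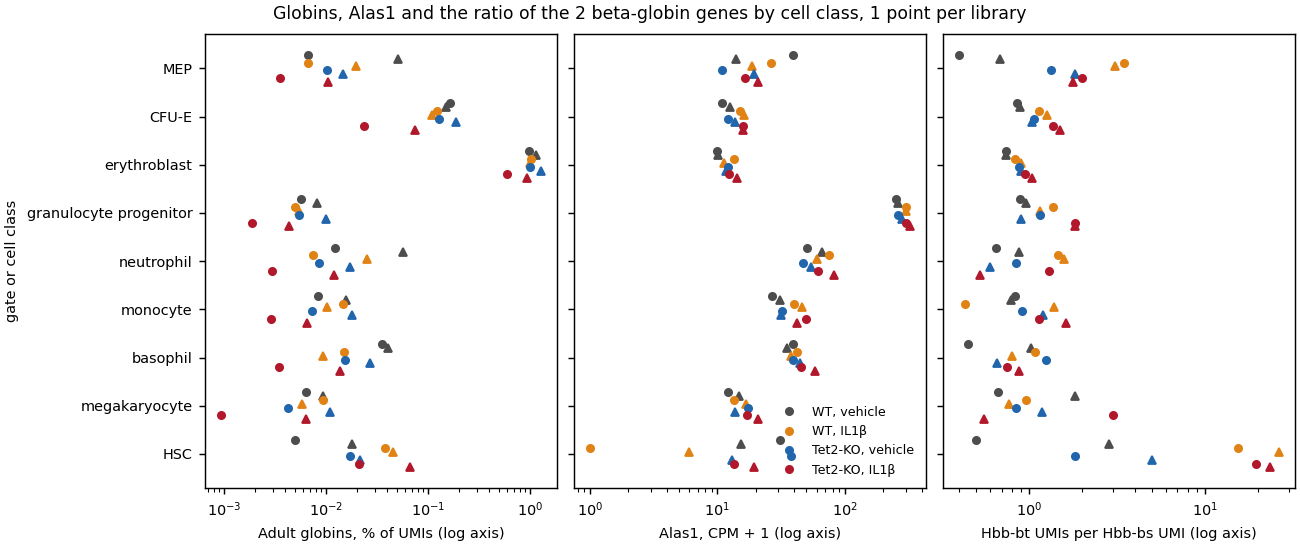
Summed adult globins as a percent of UMIs, Alas1 as CPM + 1, and Hbb-bt UMIs per Hbb-bs UMI, all on log axes, for the 3 gates and 6 marker-defined classes, 1 point per library. Globins peak in the erythroblast gate at 0.596% to 1.28%, Alas1 peaks in granulocyte-progenitor-like cells at 250.2 to 322 CPM, and the beta-globin ratio is highest in the HSC-like class of the IL1β libraries.

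The cells without a hashtag call carried most of the globin. Hashtag antibodies bind leukocyte surface proteins and MHC class I, which erythroid cells lose as they mature. No hashtag was called for 70.6% to 88.1% of erythroblast-gate cells, 43.6% to 76.4% of CFU-E-gate cells and 1.14% to 40.9% of granulocyte-progenitor-like cells. In the erythroblast gate globins made up 0.652% to 1.63% of UMIs in cells without a hashtag and 0.456% to 0.730% in cells with 1, higher without in 8 of 8 libraries with a median ratio of 2.16. The cells without a hashtag were also shallower in all 8, with a ratio of median UMIs of 0.637 to 0.935, and the part of depth in this difference was not tested. In the CFU-E gate the shares were 0.0207% to 0.348% and 0.0176% to 0.0991%, higher without a hashtag in 7 of 8 libraries with a median ratio of 4.05. The exception was replicate 1 of Tet2-KO with IL1β, at 0.0207% without and 0.0268% with a hashtag. Alas2 was also higher in the erythroblast gate without a hashtag, at a median ratio of 2.04, and Ptprc lower, at 0.414. In the MEP gate globins were higher without a hashtag in 3 of 8 libraries, with a median ratio of 0.661. A count restricted to cells with 1 hashtag thus left out the cells with the higher globin share in all erythroblast gates and in 7 of 8 CFU-E gates.

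**Figure D3:**
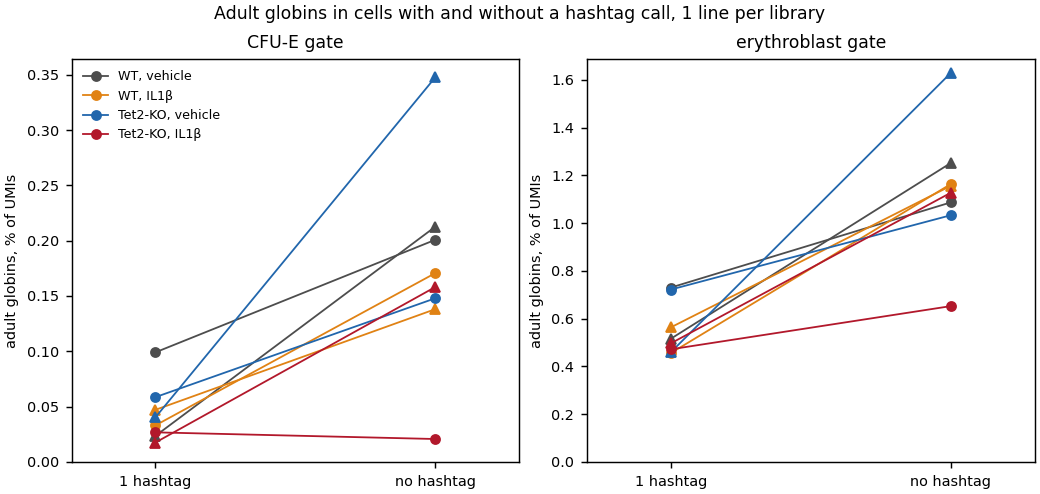
Adult globins as a percent of UMIs in cells with 1 hashtag and with no hashtag, in the CFU-E and erythroblast gates, 1 line per library, coloured by group. Lines rise to the right in 8 of 8 libraries in the erythroblast gate and in 7 of 8 in the CFU-E gate.

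With IL1β in Tet2-KO marrow, the globins of the CFU-E gate were lower. Of the 9 genes, 3 were called lower and none higher in the edgeR fit over all genes, where 1.85% of all tested genes were called. Called means a Benjamini-Hochberg adjusted p under 0.05, and each value is a log2 difference with its standard error (SE). Where groups of 2 libraries are said here or below not to overlap, this can also happen without an effect. The share of all genes that stand apart in this way was not counted, so it is a description only. The fit scales by TMM, a trimmed mean over genes. Library totals without TMM, tried after seeing the data, set the median of all genes 0.15 higher with IL1β in Tet2-KO and 0.17 higher in WT in the CFU-E gate, and 0.15 and 0.16 higher in the erythroblast gate, so fitted differences lie below those of the CPM. Of the calls over all genes in Tet2-KO, 82 were higher and 117 lower with TMM, against 357 and 97 without it. In this and the other comparisons, fewer maturing cells inside a gate and less globin RNA per cell cannot be told apart.

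Hba-a1 stood at 471 and 682 CPM with vehicle and at 97.6 and 249.8 CPM with IL1β in Tet2-KO. The groups did not overlap, and Hba-a1 was 3.67-fold lower (log2 difference -1.88, SE 0.33, edgeR adjusted p = 0.0278). Hba-a2 stood at 126 and 175 CPM against 22.2 and 63.9 CPM, also without overlap, and was 3.78-fold lower (-1.92, SE 0.33, adjusted p = 0.0269). For Hbb-bs the values were 327 and 501 CPM against 48.3 and 175 CPM. Hbb-bs was 4.08-fold lower (-2.03, SE 0.42, adjusted p = 0.0419), again with no overlap between the groups. In the cells of this gate without a hashtag Hbb-bs did overlap, at 375 and 946 CPM with vehicle against 23.8 and 386 CPM with IL1β. Hbb-bt did not pass the test, at 349 and 524 CPM against 66.6 and 262 CPM (-1.55, SE 0.43, adjusted p = 0.0699). With each pair summed before the fit, Hba-a1 and Hba-a2 together were called (-1.89, SE 0.34, adjusted p = 0.0282) and Hbb-bs and Hbb-bt together were not (-1.77, SE 0.44, adjusted p = 0.0542). Alas2 stood at 2.29 and 3.35 CPM against 0.710 and 3.11 CPM (-0.57, SE 0.46, adjusted p = 0.485), where the groups overlap.

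The 3 calls depended on libraries and on the depth at which cells were gated. Replicate 1 of Tet2-KO with IL1β was the deepest CFU-E gate, at a median of 12626 UMIs per cell, and the smallest, at 445 cells. With gates set on cells thinned to 2000 UMIs, the differences shrank to -0.83 for Hba-a1, -1.003 for Hba-a2 and -0.90 for Hbb-bs and none was called (adjusted p = 0.0633, 0.0528 and 0.0690). Without replicate 3 of Tet2-KO with vehicle they were -1.53, -1.60 and -1.63 (adjusted p = 0.196, 0.162 and 0.262). Without replicate 1 of Tet2-KO with IL1β they were -1.34, -1.37 and -1.38, and Hbb-bs was not called (adjusted p = 0.0555). Leaving out replicate 1 of WT with IL1β, a library outside this comparison but in the same fit, took all 3 to adjusted p = 0.0560 to 0.0672, and leaving out its replicate 3 took Hba-a1 to 0.0513 and Hbb-bs to 0.0619. In cells with 1 hashtag the 3 differences were -1.53, -1.34 and -1.44, with none called, and with each mouse as a replicate -1.36, -1.23 and -1.47, none called. Over all 19 alternatives Hba-a1 was called in 13, Hba-a2 in 14 and Hbb-bs in 10.

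Other values of the CFU-E gate moved beside the globins. The 10 genes of the erythroblast list, all detected in every library, summed to 311 to 342 CPM in Tet2-KO with IL1β and to 429 to 505 CPM in the other 3 groups. Cells without a hashtag made up 51.2% and 43.6% of this gate in Tet2-KO with IL1β, against 51.8% to 76.4% in the other groups. Globin UMIs were also fewer in granulocyte-progenitor-like cells of the same libraries, at 0.00188% and 0.00432% against 0.00493% to 0.00997%. The part of these in the globin difference was not tested.

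In WT marrow the globins of the CFU-E gate were not called with IL1β. Hba-a1 stood at 564 and 546 CPM with vehicle and 457 and 409 CPM with IL1β (-0.53, SE 0.32, adjusted p = 0.302), and Hbb-bs at 498 and 427 CPM against 315 and 263 CPM (-0.85, SE 0.41, adjusted p = 0.192). Hba-a2 and Hbb-bt differed by -0.78 (SE 0.31) and -0.39 (SE 0.42). The ranges did not overlap for these 4 genes either, which is a description only, and the differences stayed within what the fit allows. Whether IL1β acted differently in the genotypes was tested as an interaction: for Hba-a1 it was -1.35 (SE 0.46, adjusted p = 1.00) and for Hba-a2 -1.14 (SE 0.45), and none of the 9 genes that could be tested, like 0.0% of all genes, was called in any of the 3 gates. At an unadjusted p under 0.05, 335 of 10770 genes passed for the interaction in the CFU-E gate. This lies below the share of 0.05 that would pass with no effect.

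Urod was lower with IL1β in the CFU-E gate of WT mice. It was the only 1 of the 9 called in that comparison, a share near the 9.95% called among all genes. Its level was 145 and 143 CPM with vehicle and 119 and 107 CPM with IL1β. It was 1.43-fold lower (-0.52, SE 0.13, adjusted p = 0.0301), with no overlap. In Tet2-KO the values were 134 and 153 CPM against 101 and 121 CPM, a difference of the same size that missed the threshold (-0.52, SE 0.13, adjusted p = 0.0562), with an interaction of 0.00 (SE 0.18). The WT call was lost without any 1 of the 4 WT libraries, at -0.42 to -0.64 and adjusted p = 0.0518 to 0.260, and in cells with 1 hashtag at -0.45. Without TMM Urod was called at -0.35 (adjusted p = 0.0482), and Cpox and Fech were called higher at 0.49 and 0.46, with 1545 genes higher and 418 lower over all genes against 399 and 673 with TMM.

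With IL1β, Cpox and Fech rose in the erythroblast gate of WT mice, 2 of the 9 genes, against 11.9% called among all genes. Cpox stood at 532 and 565 CPM with vehicle and 773 and 857 CPM with IL1β, 1.33-fold higher (0.41, SE 0.11, adjusted p = 0.0349). Fech stood at 116 and 131 CPM against 172 and 184 CPM, 1.29-fold higher (0.37, SE 0.09, adjusted p = 0.0299). Neither pair of groups overlaps. Both calls were lost without any 1 of the 4 WT libraries, at 0.37 to 0.44 for Cpox and 0.32 to 0.42 for Fech, in cells with 1 hashtag at 0.40 and 0.48, and with gates on thinned cells at 0.37 and 0.35. The Cpox call was also lost without replicate 1 of Tet2-KO with IL1β, and with the pool number as a replicate block in the fit. Without TMM both were called, at 0.57 and 0.53. Over all genes 517 were higher and 754 lower with TMM, and 1468 and 464 without it.

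The remaining genes of this gate were not called in WT. Urod stood at 197 and 195 CPM against 176 and 160.4 CPM (-0.38, SE 0.14, adjusted p = 0.0924), which do not overlap. Alas2 stood at 15.1 and 24.7 CPM against 29.3 and 30.5 CPM (0.40, SE 0.19, adjusted p = 0.190), also apart. The 4 globins differed by -0.13 to -0.34 with adjusted p from 0.288 to 0.760, and Hba-a1 and Hbb-bt turned to 0.02 and 0.03 without TMM.

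None of the 9 genes was called with IL1β in the erythroblast gate of Tet2-KO mice by edgeR, where 0.634% of all genes were (46 higher and 22 lower, against 187 and 36 without TMM), although 2584 genes passed an unadjusted p under 0.05. The 3 globins called in the CFU-E gate came closest. Hba-a2 stood at 815 and 1092 CPM against 458 and 698 CPM (-0.88, SE 0.21, adjusted p = 0.0659). Hba-a1 differed by -0.72 (SE 0.17, adjusted p = 0.0685) and Hbb-bs by -0.80 (SE 0.22, adjusted p = 0.0770). All 3 pairs of groups stand apart, which is a description only. DESeq2 called 2 of the 9 genes here, and its own share over all genes is not given. Over all genes the 19 alternatives, DESeq2 among them, called 18 to 1818 in this comparison, against 68 by edgeR. Cpox stood at 627 and 553 CPM against 721 and 768 CPM (0.19, SE 0.11, adjusted p = 0.298), and Fech at 130 and 117 CPM against 153 and 156 CPM (0.18, SE 0.09, adjusted p = 0.255).

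**Figure D4:**
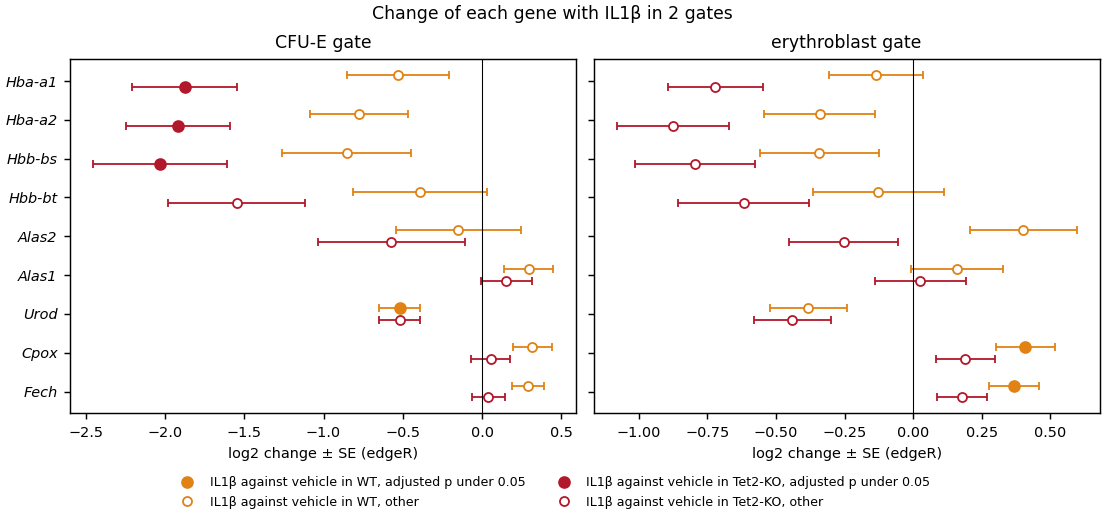
Log2 difference with its SE between IL1β and vehicle for each of the 9 genes, in WT and in Tet2-KO, in the CFU-E and erythroblast gates, with filled points where the adjusted p was under 0.05. In the CFU-E gate 3 globins are filled at -1.88 to -2.03 in Tet2-KO and Urod at -0.52 in WT, and in the erythroblast gate Cpox and Fech are filled at 0.41 and 0.37 in WT.

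In the MEP gate 6 of the 9 genes had enough UMIs to be tested, Hba-a2, Alas2 and Alas1 being too low. With IL1β in WT, 1 gene was called, against 0.278% of all genes (7 higher and 11 lower, and 13 and 6 without TMM): Hbb-bs, at 23.8 and 197 CPM with vehicle and 9.23 and 32.9 CPM with IL1β (-2.78, SE 0.55, adjusted p = 0.0230). The groups overlap, and the value rests on replicate 3 of WT with vehicle, which held 91 of the UMIs in a gate of 121 cells: without it the difference was -0.39 (adjusted p = 0.907). Replicate 3 of WT with vehicle was also the only 1 of the 4 WT libraries in which the share of cells with Hbb-bs exceeded that of granulocyte-progenitor-like cells. With Hbb-bs and Hbb-bt summed the difference was -1.42 and not called (adjusted p = 0.210). With IL1β in Tet2-KO none of the 6 was called, against 0.108% (5 higher and 2 lower, and 11 and 1 without TMM), with 883 genes at an unadjusted p under 0.05.

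Between genotypes none of the tested genes, 6 of the 9 in the MEP gate and all 9 in the others, was called by edgeR. Among all genes 0.0% were called in the MEP gate, 0.0186% in the CFU-E gate and 0.0466% in the erythroblast gate with vehicle, and 0.0309%, 0.0557% and 0.0653% with IL1β. At an unadjusted p under 0.05, 233, 255 and 260 genes passed with vehicle and 329, 732 and 497 with IL1β, of 6474, 10770 and 10725 tested. With vehicle each lies below the share of 0.05 that would pass with no effect. In the MEP gate with vehicle Hba-a1 and Hbb-bs differed by -1.53 (SE 0.47) and -2.09 (SE 0.53), both with adjusted p = 0.999, and both were called without the filter on low counts (adjusted p = 0.0283 and 8.83e-06). Over all genes 14 were called without that filter, against 0 with it. Without replicate 3 of WT with vehicle Hbb-bs turned to 0.30, and with gates on thinned cells the values of Hba-a1 and Hbb-bs were 0.28 and 0.75. With vehicle the globins of the CFU-E gate differed by -0.16 to 0.13 and those of the erythroblast gate by -0.03 to 0.22. With IL1β they stood lower in Tet2-KO, by 1.03 to 1.33 on the log2 scale in the CFU-E gate, with Hba-a1 at 97.6 and 249.8 CPM against 457 and 409 CPM in WT (-1.29, SE 0.33, adjusted p = 0.296). The 4 globins of the erythroblast gate with IL1β differed by -0.27 to -0.48. Urod, Cpox and Fech differed between genotypes by no more than 0.25 in either of these gates. A comparison of genotypes and a comparison of treatments share the libraries of 1 group, so they are not independent of each other.

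The balance among the enzymes was then taken within each library, as a ratio of UMIs, which does not depend on scaling. Cpox per Urod was 2.30 to 3.09 in the 4 vehicle libraries and 3.93 to 4.85 in the 4 IL1β libraries in the CFU-E gate, and 2.52 to 3.21 and 4.07 to 5.34 in the erythroblast gate. Fech per Urod was 0.439 to 0.574 and 0.701 to 0.903 in the CFU-E gate, and 0.531 to 0.669 and 0.824 to 1.15 in the erythroblast gate. The IL1β libraries of both genotypes thus lay above all vehicle libraries for both ratios in both gates. The log2 differences were 0.71 and 0.72 for Cpox per Urod and both 0.69 for Fech per Urod. Each reached p = 0.0286 in a two-sided exact permutation test of 4 libraries against 4, the smallest p that this design allows, and 0.0980 after adjustment over 24 ratio tests, which were chosen with values in view.

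Ratios within the globin pairs were taken in the same way, and depend on how reads of shared stretches were assigned. Hba-a1 per Hba-a2 was 3.60 to 3.89 with vehicle and 3.91 to 4.40 with IL1β in the CFU-E gate, and 3.64 to 4.07 and 4.15 to 4.93 in the erythroblast gate, so the IL1β libraries were higher without overlap (exact permutation p = 0.0286 for each, adjusted 0.0980). Hbb-bt per Hbb-bs was 0.853 to 1.07 with vehicle and 1.14 to 1.503 with IL1β in the CFU-E gate (exact permutation p = 0.0286, adjusted 0.0980). In the erythroblast gate it was 0.745 to 0.898 and 0.831 to 1.04, which overlap (exact permutation p = 0.114). Within each genotype the IL1β libraries lay above the vehicle libraries there. The ratios were 0.746 and 0.745 against 0.831 and 0.904 in WT, and 0.875 and 0.898 against 0.952 and 1.04 in Tet2-KO. Alpha per beta globin differed by 0.02 and 0.04 on the log2 scale in the 2 gates (exact permutation p = 0.914 and 0.771), with overlapping ranges. Between genotypes no ratio had ranges that stood apart.

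**Figure D5:**
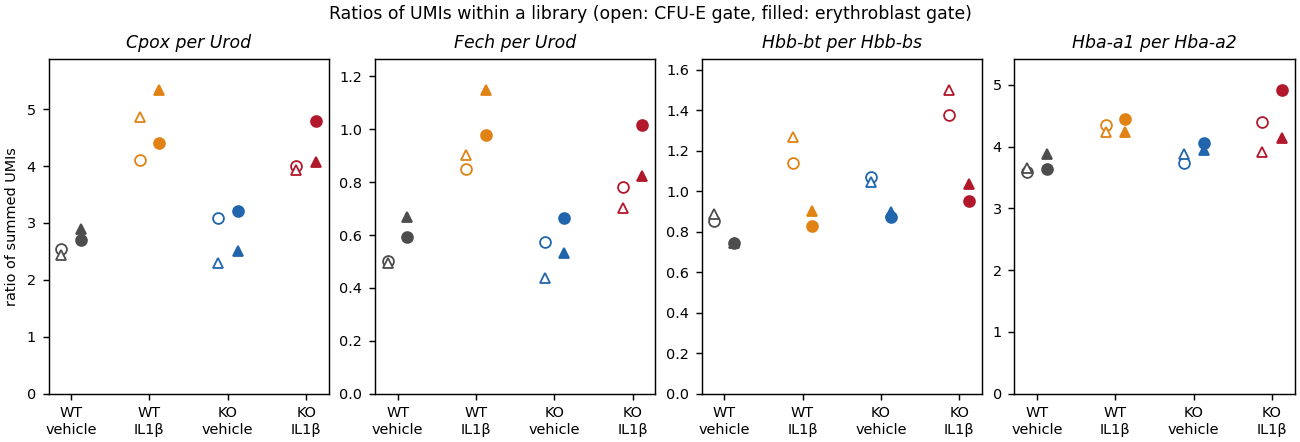
Ratios of summed UMIs within each library, on linear axes from 0, for Cpox per Urod, Fech per Urod, Hbb-bt per Hbb-bs and Hba-a1 per Hba-a2, by group, with open points for the CFU-E gate and filled points for the erythroblast gate. Cpox per Urod lies at 2.30 to 3.21 in all vehicle points and at 3.93 to 5.34 in all IL1β points.

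The other genes of the pathway, 43 of a list of 45 found in the files, put these values in context. The heme synthesis enzymes Alad, Uros and Ppox were not called in any of the 3 gates, though not all of them could be tested in the MEP gate. In the CFU-E gate of Tet2-KO with IL1β they differed by -0.24 (SE 0.11), -0.56 (SE 0.19) and -0.27 (SE 0.14), and in WT by 0.00 (SE 0.11), -0.24 (SE 0.17) and -0.08 (SE 0.14). In the CFU-E gate of WT mice with IL1β, 2 of 35 tested pathway genes rose and 7 fell, with a median of -0.08 against 0.02 over all genes, of which 9.95% were called. Tfrc, the transferrin receptor that takes in iron, rose by 0.90 (SE 0.16, adjusted p = 0.0158), and Slc25a37, the mitochondrial iron importer, by 0.54 (SE 0.15, adjusted p = 0.0416).

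Genes that fell in WT belong to iron storage, porphyrin transport, heme breakdown and iron-sulfur clusters. Their number depended on the scaling: without TMM 10 pathway genes rose and 4 fell, the 4 being Ftl1, Fth1, Tmem14c and Blvrb. The ferritin subunits Ftl1 and Fth1 differed by -0.82 (SE 0.18) and -0.60 (SE 0.17). Tmem14c, which carries porphyrin into the mitochondrion, differed by -0.82 (SE 0.18), and the biliverdin reductases Blvrb and Blvra by -0.95 (SE 0.21) and -0.48 (SE 0.12). Iscu, needed to build iron-sulfur clusters, differed by -0.55 (SE 0.14). In Tet2-KO, 2 of 35 fell, Tmem14c by 0.91 (SE 0.18, adjusted p = 0.0356) and Ftl1 by 0.81 (SE 0.18, adjusted p = 0.0475) on the log2 scale, and none rose, where 1.85% of all genes were called. Without TMM 2 were higher and 3 lower.

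In the erythroblast gate of WT mice 3 of 37 pathway genes rose with IL1β and 4 fell, where 11.9% of all genes were called. Tfrc rose by 0.82 (SE 0.12, adjusted p = 0.00827), Slc25a37 by 0.73 (SE 0.17) and the mitochondrial carrier Slc25a39 by 0.39 (SE 0.10). Among those that fell, Blvrb, Ftl1 and Tmem14c differed by -0.87, -0.75 and -0.70. Without TMM 7 rose and 5 fell. In Tet2-KO only Tfrc was called among the 37, at 0.65 (SE 0.12, adjusted p = 0.0398), against 0.634% of all genes. In the MEP gate of WT only Tfrc was called among 28, at 1.81 (SE 0.33, adjusted p = 0.0139), against 0.278%. No pathway gene was called between genotypes in the 3 gates.

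Over the 24 sums of 8 libraries and 3 gates, genes whose log2(CPM + 1) ran much like the summed globins were Josd2 (Pearson r = 0.969), Dek (0.962), Hemgn (0.958) and Lig1 (0.954), among 3074 genes with a mean of at least 50 CPM. For Alas2 they included Hemgn (0.974), Hbb-bs (0.974), Dek (0.971) and Hbb-bt (0.965). Alas1 had no gene as close: Ube2b (0.827), Pitpnb (0.817), Man1a2 (0.813), Poldip3 (0.805) and Ubr4 (0.790) led its list. The sums share libraries and gate order, so these values describe likeness only.

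Cells outside the erythroid gates were fitted the same way, after their levels had been seen. In HSC-like cells 4 of the 9 genes could be tested (Hba-a1, Hbb-bt, Urod and Cpox), and Hbb-bt was called higher with IL1β in each genotype, where 1.36% of all genes were called in WT and 2.87% in Tet2-KO. In granulocyte-progenitor-like cells Fech was called higher in both genotypes, against 6.66% of all genes in WT and 16.9% in Tet2-KO, and 3 globins were called lower in Tet2-KO, at the level used here as background.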

How the data were processed

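Single-cell RNA (mRNA) and hashtag (HTO) libraries of Lin- marrow were analysed from 4 groups, each with 2 libraries of 2 pooled mice. Per the labels, processing used Cell Ranger 3.1.0, Seurat 3.2.3 and build mm10. The authors deposited UMI counts per gene and barcode and counts per hashtag and barcode, with no further normalization. Cells were kept above 750 genes and under 10% mitochondrial UMIs (limits included). Hashtags were called per library with HTODemux (Seurat 5.3.0), and cells positive for both hashtags were removed. No other doublet caller was run. Cells that met an erythroid rule and held at least 4 markers of a non-erythroid list, 155 to 581 per library with 8.48% to 24.0% of its globin UMIs, were left out of the gates, as mixed cells. In WT their share of globin UMIs was 8.48% and 11.3% with vehicle and 16.6% and 17.9% with IL1β. In Tet2-KO it was 13.8% and 9.90% with vehicle and 11.8% and 24.0% with IL1β, replicate 1 first in each. The part of this in the globin differences was not tested. Depth was 51009539 to 88064590 UMIs per library, and the low MEP-gate counts limit precision there.

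Counts were summed per library and gate, hashtag-negative cells included, and tested with edgeR 4.0.16 (quasi-likelihood, TMM, filterByExpr, all 8 libraries in 1 fit, Benjamini-Hochberg adjustment, 0.05). SE is the log2 difference divided by the root of F. p-values reflect the spread between pools. Ratios were tested with two-sided exact permutation tests. Scripts were tested on simulated data. Alternatives were DESeq2 1.42.0 and changed filters, gates, replicates and libraries, and library totals without TMM, tried after seeing the data. Same-numbered pools came from different mice, and their deviations correlated at -0.193 to 0.168, so numbers were not treated as pairs. The members and lists were chosen with earlier results of these data known. Named genes are the 9, the called pathway genes (up to 10 a gate), Alad, Uros and Ppox, and the 5 most alike per pattern, of which some genes are not reported here. Ahsp and Hbb-bh0 of the pathway list were not analysed here. Promoters and transcripts are from RefSeq (GRCm38.p6).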

Additional observations from a re-analysis of the deposited data

Results flagged for a closer look

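These values come from cells outside the 3 erythroid gates, fitted the same way after the levels had been seen.

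In HSC-like cells, those with at least 4 genes of a list led by Hlf, Mecom and Procr and of no other list, Hbb-bt was higher with IL1β in both genotypes. Hbb-bt stood at 9.96 and 96.3 CPM in WT with vehicle and at 326 and 395 CPM in WT with IL1β (log2 difference 2.12, SE 0.46, edgeR adjusted p = 0.0187, with 1.36% of all genes called). In Tet2-KO it stood at 76.5 and 119.8 CPM against 182 and 600.3 CPM (1.84, SE 0.42, adjusted p = 0.0160, with 2.87% of all genes called). The groups did not overlap in either genotype, which is a description only with 2 libraries per group. Of the 9 genes 4 could be tested in this class. The class held 33 to 174 cells per library, and Hbb-bt was counted on 1 to 165 UMIs, in 3.03% to 45.5% of cells. Hbb-bt per Hbb-bs was 15.5 to 26.3 in the 4 IL1β libraries, 0.500 to 5.00 in the 4 vehicle libraries and 0.745 to 1.04 in the erythroblast gate. The HSC-like ratios rest on 3 to 7 Hbb-bs UMIs in each IL1β library and 2 to 19 in each vehicle library, and are imprecise. Of the Hbb-bt UMIs in IL1β libraries, 58 of 62, 45 of 79, 98 of 117 and 146 of 165 lay in cells without a UMI of another globin. In the vehicle libraries of this class these were 1 of 1, 41 of 54, 23 of 31 and 25 of 30. In granulocyte-progenitor-like cells of the IL1β libraries they were 323 of 492, 224 of 293, 122 of 163 and 415 of 552. Hbb-bt without another globin was thus not particular to HSC-like cells with IL1β. Alas2 had no UMI in this class in any of the 8 libraries. The WT call was lost without WT_vehicle replicate 1 (1.78, adjusted p = 0.165) or replicate 3 (5.01, adjusted p = 0.126), and the Tet2-KO call without KO_vehicle replicate 1 (1.52, adjusted p = 0.102), without KO_IL1b replicate 3 (0.81, adjusted p = 0.258) and in DESeq2 (1.91, adjusted p = 0.265).

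In granulocyte-progenitor-like cells Fech was higher with IL1β in both genotypes. It stood at 12.4 and 13.5 CPM against 27.7 and 30.01 CPM in WT (log2 difference 0.96, SE 0.14, adjusted p = 0.0211, with 6.66% of all genes called) and at 14.9 and 11.6 CPM against 24.02 and 21.2 CPM in Tet2-KO (0.62, SE 0.14, adjusted p = 0.0159, with 16.9% called). The WT call was lost without WT_vehicle replicate 1 (0.93, adjusted p = 0.232), without its replicate 3 (1.01, adjusted p = 0.135) and without WT_IL1b replicate 3 (0.97, adjusted p = 0.0768). In the same cells of Tet2-KO 3 globins were called lower with IL1β. Hba-a1 stood at 13.4 and 24.9 CPM with vehicle against 4.89 and 9.07 CPM with IL1β (log2 difference -1.56, adjusted p = 0.0133), and the differences were -1.50 for Hba-a2 (adjusted p = 0.0351) and -1.86 for Hbb-bs (adjusted p = 0.0162). These cells set the background for globin detection in the report, with Hbb-bs in 0.977% to 6.65% of cells at 2000 UMIs. The source of their globin UMIs was not tested, so the globin differences are given as levels only. The 4 Tet2-KO calls were all lost without KO_vehicle replicate 3 (Fech 0.48, Hba-a1 -1.02, Hba-a2 -0.87 and Hbb-bs -1.24) or without KO_IL1b replicate 1 (0.57, -1.16, -1.06 and -1.34), and that of Hba-a2 also without either WT_vehicle library (adjusted p = 0.0545 and 0.0553).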

How the results depend on the processing

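Levels were higher at each later gate for 8 of 9 members under every alternative that redrew gates or cells, but 52 of 108 levels lay more than 1 SD from the reported one. Of the log2 differences under alternatives, none reversed a call, 61 lost it, 75 gained one and 177 changed sign with no call either way. Without a filter on low counts, called members were 2 for Tet2-KO against WT with vehicle in the MEP gate (reported 0), 2 for IL1β in WT there (reported 1), 4 for Tet2-KO against WT with IL1β in the CFU-E gate (reported 0), 5 and 5 for IL1β in WT and Tet2-KO there (reported 1 and 3), 4 for the interaction there (reported 0), 1, 6 and 5 for the genotypes under IL1β, IL1β in WT and IL1β in Tet2-KO in the erythroblast gate (reported 0, 2 and 0), and 4 in WT granulocyte-progenitor-like cells (reported 1). That setting also gave the most calls over all genes in several of these comparisons. In the MEP gate these were 14 for Tet2-KO against WT with vehicle (reported 0) and 150 for IL1β in WT (reported 18). In the CFU-E gate they were 176 for the genotypes under IL1β (reported 6) and 1282 for IL1β in Tet2-KO (reported 199). DESeq2 called 2 for IL1β in Tet2-KO erythroblasts and 0 in Tet2-KO HSC-like cells (reported 1), and gave no adjusted p for some members. Library totals without TMM, added after seeing the data, called 3 for IL1β in WT in the CFU-E gate (reported 1). With mice as replicates, IL1β in WT gave 0 in the MEP gate and 3 in the CFU-E gate, and IL1β in Tet2-KO gave 1 in the CFU-E gate. With 1-hashtag cells, IL1β in WT gave 2, 0 and 0 along the gates and IL1β in Tet2-KO 0 in the CFU-E gate. Stricter gates, thinned gates and summed pairs each gave 0 for IL1β in WT in the MEP gate, and thinned gates 0 for IL1β in Tet2-KO in the CFU-E gate. With the pool number as a replicate block, IL1β in WT gave 2 in the MEP gate and 1 in the erythroblast gate, where Cpox was not called (adjusted p = 0.0541), and other counts stayed within 1.5 times. Without 1 library at a time, with the lone sample assumed to vary like the other groups, counts ran from 0 to 1 (Tet2-KO against WT with vehicle, MEP gate, and HSC-like cells of both genotypes and WT granulocyte-progenitor-like cells), 0 to 2 (IL1β in WT, MEP gate), 0 to 3 (IL1β in WT, CFU-E and erythroblast gates), 0 to 4 (genotypes under IL1β and interaction, CFU-E gate) and 0 to 5 (IL1β in Tet2-KO, CFU-E and erythroblast gates and granulocyte-progenitor-like cells). The cause was not tested. Over all genes, calls for IL1β in WT ranged from 0 to 150 (reported 18) in the MEP gate, 9 to 1963 (reported 1072) in the CFU-E gate and 25 to 2126 (reported 1271) in the erythroblast gate, and for IL1β in Tet2-KO from 0 to 102 (reported 7), 11 to 1282 (reported 199) and 18 to 1818 (reported 68). Genotype and interaction calls over all genes were 0 to 7 as reported and 0 to 176 under alternatives. Depth limits the MEP gate, at 210301 to 461863 UMIs per library, and the HSC-like class, at 100355 to 643683.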
